A study of Mus musculus with 2 samples.

Results

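The genes described here are 37 immediate early and heat shock genes, measured in single cells of the mouse maxillary periodontium, the gum, ligament, bone and root surface that anchor the upper teeth. They were picked as a list of gene names and not by a rule on their values. Of the 37 genes, 30 are immediate early genes or feedback genes that are induced with them, and 7 are heat shock genes. All 37 were found by symbol among the 32285 genes of the deposited tables, and all 37 had UMIs in kept cells of both libraries. The series is titled as a study of the murine periodontium while diabetic periodontitis resolves. It holds 2 droplet libraries, titled 377P and RP. They were made with 10x Genomics Chromium 3′ chemistry (v3), so that every captured mRNA molecule is counted once by a unique molecular identifier (UMI). Both are labelled as mouse maxillary periodontium, and the labels give no genotype, strain, treatment, time, age or number of pooled animals, so neither library is treated as a control. With 1 library per title there is no replicate. The values therefore describe 2 single libraries, whatever conditions their titles stand for, and no test of a difference is given.

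Immediate early genes are transcribed within minutes of a signal, without new protein synthesis, because the factors that switch them on are already present in the cell. MAP kinases and calcium signals reach them through serum response factor and CREB, and their products are mostly transcription factors, phosphatases and RNA-binding proteins that pass on or end the response. Heat shock genes are switched on by heat shock factor when proteins misfold, and their products refold or hold such proteins. Both groups are also known to be switched on while a tissue is cut, digested and held as single cells. The sources used here do not give the time or enzymes of the digestion, so RNA made in the tissue and RNA made during handling cannot be told apart in any value below.

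To show where the known switches lie, the 250 bases before each gene's start were searched on both strands in the RefSeq promoter table for GRCm38.p6. The table had an entry for 30 of the 37 genes, 25 immediate early and 5 heat shock. These 30 genes had 37 windows, and a gene was counted when any of its windows held a motif. The percentages below are of single windows, so the 2 measures are not alike. The heat shock motif GAANNTTC stood before 5 of the 30 genes, Hspa1a, Hspa1b, Hspb1, Jun and Fosl2, against 6.69% of all 32851 promoter windows of the same length. The full CREB motif TGACGTCA stood before 2 genes, Btg2 and Dusp1, against 1.55% of all windows. The CArG box, the motif bound by serum response factor, stood before 3 genes, Dusp5, Egr2 and Zfp36, against 1.47%. The shorter CREB motif TGACG, which is contained in the full motif, stood before 17 genes, against 17.8%. Hspa1a and Hspa1b are shown because their stretches are identical letter for letter, Hspb1 because it holds 2 heat shock motifs, and Dusp5, Dusp1 and Btg2 because they show the other motifs. Each stretch is 80 bases long, is written 5′ to 3′ along the gene's own strand, and has its motifs in capitals. In Dusp5 the capitals are a pair of CArG boxes that touch, and this stretch lies in an exon of the antisense gene AC137853.2.
Hspa1a, minus strand of chr17:34972217-34972296: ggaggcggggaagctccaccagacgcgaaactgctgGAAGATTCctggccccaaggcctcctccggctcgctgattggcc
Hspa1b, minus strand of chr17:34959299-34959378: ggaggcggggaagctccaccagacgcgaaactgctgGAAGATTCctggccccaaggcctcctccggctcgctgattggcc
Hspb1, plus strand of chr5:135887776-135887855: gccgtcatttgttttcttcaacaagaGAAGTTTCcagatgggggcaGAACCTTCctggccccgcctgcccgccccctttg
Dusp5, plus strand of chr19:53529029-53529108: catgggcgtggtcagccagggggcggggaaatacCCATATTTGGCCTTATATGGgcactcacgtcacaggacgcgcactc
Dusp1, minus strand of chr17:26508572-26508651: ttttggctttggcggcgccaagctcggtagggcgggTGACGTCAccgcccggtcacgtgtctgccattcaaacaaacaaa
Btg2, minus strand of chr1:134079278-134079357: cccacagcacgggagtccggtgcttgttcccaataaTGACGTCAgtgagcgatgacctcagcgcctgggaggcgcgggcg
A match describes these letters only, and binding was not measured.

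The 377P library held 127094166 UMIs in 15466 barcodes and the RP library 120909095 in 18112, and 14519 and 16776 cells were kept. The libraries shared 82 barcodes, 69 of them kept. Cells were clustered without the 37 genes and clusters were named from marker genes, which gave 8 classes large enough to compare: epithelial-like cells of the keratinocyte kind, gland-like or respiratory epithelial-like cells, fibroblast-like, perivascular-like, blood endothelial-like and monocyte-like or macrophage-like cells, B-like or plasma-like cells, and T-like or NK-like cells. The short names below stand for these rebuilt classes. Lymphatic endothelial-like, Schwann-like, neutrophil-like, neuronal-like and chondrocyte-like cells were fewer and enter only the levels. The 21 chondrocytes of 377P and the 24 neuronal cells of RP were too few for a level. Osteoblasts and osteoclasts belong to a periodontium, and 0 cells fell into a cluster named for either. Different clusters held much of a class in each library. Cluster 8 (2497 cells from 377P, 1 from RP) and cluster 28 (9 and 2166) held most epithelial cells, cluster 6 (2102 and 9) and cluster 7 (14 and 3153) most fibroblasts, cluster 13 (1450 and 71) and cluster 30 (2 and 359) most T or NK cells, and cluster 4 (2974 and 2) and cluster 5 (114 and 561) most B or plasma cells. Of the gland cells, cluster 9 held 274 of 524 in 377P and 277 of 2897 in RP, cluster 25 155 and 1294, and cluster 3 95 and 1326. The median number of UMIs per cell was lower, and the median mitochondrial share higher, in RP in 8 of 8 classes. UMIs of genes that mark 1 class were found in all others, as free RNA in the droplets would give. Krt14, a keratin of epithelial cells, reached 11.6% of its epithelial level in the B or plasma cells of 377P and 10.2% in those of RP, and 14.1% and 10.4% in monocytes or macrophages. Tff2, a secreted product of gland cells, reached 3.98% and 11.2% of its gland level in the B or plasma cells of 377P and RP. In monocytes or macrophages it reached 2.30% and 7.66%. The reach was smaller for Col3a1, a collagen gene, at 2.99% and 3.92% of its fibroblast level in the B or plasma cells of 377P and RP. Cd3e, a T cell gene, stood at 1.55% and 0.438% of its T or NK level in epithelial cells. Below, the range that free RNA reaches is that of Krt14 and Tff2. It may be too wide for genes led by other classes. A gene at a level within it, as a percent of its highest class, cannot be told apart from free RNA by this gauge.

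The 37 genes together made up 2.68% of the UMIs of the kept cells in 377P and 2.75% in RP. The immediate early genes made up 1.88% and 2.02%, and the heat shock genes 0.803% and 0.733%. These shares differed more between cell classes than between the libraries. Fibroblasts had the highest immediate early share, 3.18% in 377P and 3.28% in RP, and B or plasma cells the lowest among the compared classes, 0.954% in 377P and 0.978% in RP. Stromal, vascular and Schwann cells lay above epithelial cells. The 79 neuronal cells of 377P had 0.952%. Schwann cells had 2.66% in 377P and 2.75% in RP, lymphatic endothelial cells 2.53% in 377P and 2.80% in RP, perivascular cells 2.69% in 377P and 2.63% in RP and blood endothelial cells 2.24% in 377P and 2.44% in RP. Epithelial cells had 1.63% in 377P and 1.88% in RP, monocytes or macrophages 1.30% in 377P and 1.43% in RP and T or NK cells 1.09% in 377P and 1.31% in RP. Gland cells, with 1.85% in 377P and 1.23% in RP, lay above T or NK cells in 377P and below them in RP. The heat shock share had another order. It was highest in lymphatic endothelial cells, 1.40% in 377P and 1.05% in RP, followed by perivascular cells, 1.33% in 377P and 1.03% in RP, and fibroblasts, 1.13% in 377P and 1.0% in RP. Neutrophils had the lowest, 0.291% in 377P and 0.353% in RP. The counting intervals of these shares are narrow: that of the immediate early share in fibroblasts ran from 3.17% to 3.19% in 377P. Single cells varied far more. The middle 80% of fibroblasts, from the 10th to the 90th percentile, had immediate early shares from 1.17% to 6.20% in 377P and from 1.31% to 5.90% in RP.

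**Figure D1:**
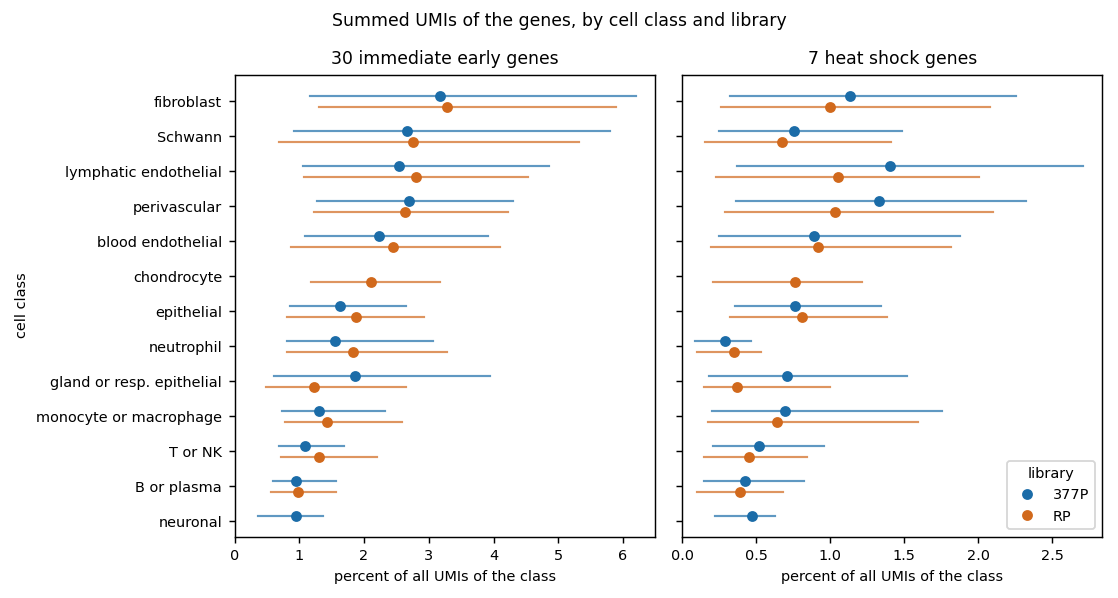
Summed UMIs of the 30 immediate early genes and of the 7 heat shock genes as a percent of all UMIs, by cell class (rows) and library (colour). Points are the class totals, and lines run from the 10th to the 90th percentile of single cells. Fibroblasts stand highest for the immediate early genes, at 3.18% and 3.28%, and gland cells show the widest gap between libraries, 1.85% against 1.23%.

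For 36 of the 37 genes the spread from the lowest to the highest class over the 8 compared classes was larger in both libraries than the largest gap between the libraries within a class. The exception was Hsp90aa1, with a spread of 0.67 and 1.25 log2 units and a largest gap of 0.92. Over the genes, the median spread was 2.64 log2 units in 377P and 2.39 in RP, and the median gap between libraries was 0.20. The levels below are counts per 1000000 UMIs of a class (CPM). They come from 3′ tags and are compared between classes and not between genes.

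The AP-1 subunits, which pair with each other to bind DNA, fell into several patterns. Fos, whose protein pairs with Jun, had 4938 CPM in 377P and 5034 in RP in fibroblasts, and 4830.3 and 5649 in Schwann cells. It was lowest in B or plasma cells, 417 CPM in 377P and 652 in RP. The lowest level was 8.44% of the highest in 377P and 11.5% in RP, a size that free RNA also reaches. Fosb, a close relative of Fos, and Jun were also highest in fibroblasts. Fosb had 3179 CPM in 377P and 3479 in RP there, and Jun 3048 CPM in 377P and 3200.5 in RP. Atf3 and Fosl1, stress-induced subunits that can repress transcription or replace Fos, were highest in epithelial cells. Atf3 had 2669.6 CPM in 377P and 2532 in RP there, with lymphatic endothelial cells next at 2408 and 2375. Fosl1 had 245 CPM in 377P and 177 in RP in epithelial cells and 30.5 CPM in 377P and 29.7 in RP in T or NK cells. Fosl2 was led by the vessels, with 480.1 CPM in 377P and 489 in RP in blood endothelial cells and 461 and 476 in perivascular cells. Jund, the subunit that is made without a stimulus, was the most even of the AP-1 genes, from 686 in epithelial cells to 1744 in lymphatic endothelial cells of 377P.

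The EGR, NR4A and KLF factors were high in different cells. Egr1, a zinc finger factor switched on through serum response factor, had 2720.4 CPM in 377P and 3008 in RP in fibroblasts and 219.9 CPM in 377P and 313 in RP in T or NK cells, its lowest class. Egr2, which Schwann cells need to make myelin, was highest in Schwann cells, 259.7 CPM in 377P and 223 in RP. Egr3 was led in RP by the chondrocytes, at 333 CPM in 62 cells, and in 377P, where chondrocytes have no level, by fibroblasts at 120.5 and Schwann cells at 118. The NR4A genes encode nuclear receptors that act without a known ligand. Nr4a1, which antigen receptor signals also induce in lymphocytes, was highest in perivascular cells, 849 CPM in 377P and 719 in RP. Nr4a2 was highest in Schwann cells, 649.9 CPM in 377P and 687 in RP, and Nr4a3 in T or NK cells, 258 CPM in 377P and 332 in RP. Klf2, a flow-induced factor of endothelium that also keeps lymphocytes quiescent, was highest in lymphatic endothelial cells, 1014 CPM in 377P and 1069 in RP, and had 867 CPM in 377P and 565 in RP in B or plasma cells. Klf4 was highest in fibroblasts, 1204 CPM in 377P and 1274 in RP, and Klf6 in epithelial cells, 1241 CPM in 377P and 1136 in RP.

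**Figure D2:**
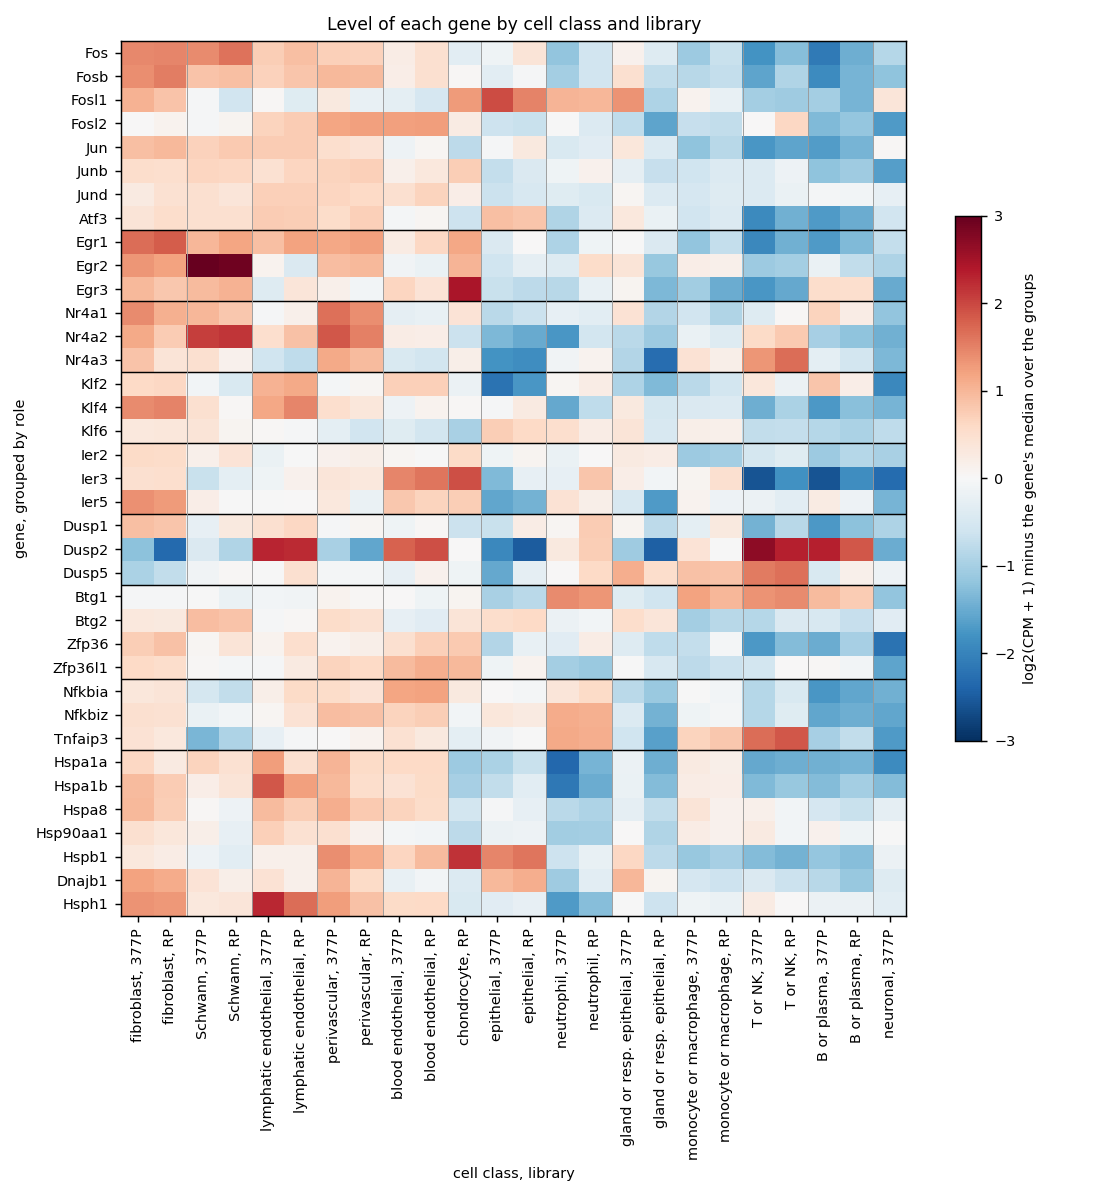
Level of each of the 37 genes (rows, grouped by role) in each cell class and library (columns), as log2(CPM + 1) minus the gene's own median over the columns, so that colours compare classes within a gene. Fos, Fosb, Jun and Egr1 are high in the stromal and Schwann columns, and Dusp2, Dusp5, Tnfaip3 and Btg1 are high in lymphocyte or myeloid columns. Dusp2 is also high in the lymphatic endothelial column of RP.

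Genes that end the response had their own cell classes. The MAP kinase phosphatases remove the signal that induces the immediate early genes. Dusp1 was highest in fibroblasts, 973 CPM in 377P and 926 in RP. Dusp2 and Dusp5 were instead highest in T or NK cells, Dusp2 with 232 CPM in 377P and 182 in RP and Dusp5 with 221 CPM in 377P and 235 in RP. Next for Dusp2 were B or plasma cells in 377P, at 183 CPM, and lymphatic endothelial cells in RP, at 171 CPM. Epithelial cells had the lowest Dusp2, 8.53 CPM in 377P and 5.49 in RP, which is 3.68% and 3.02% of the T or NK level. Of the genes for mRNA decay and growth arrest, Zfp36, which binds AU-rich messages and speeds their decay, had 1175 CPM in 377P and 1301 in RP in fibroblasts. Its relative Zfp36l1 was highest in blood endothelial cells, 817 CPM in 377P and 904 in RP. Btg1 and Btg2 are antiproliferative partners of the deadenylase complex. Btg1 was high in the immune classes, with 1601 CPM in 377P and 1493 in RP in neutrophils and 1517 CPM in 377P and 1594 in RP in T or NK cells. Btg2 was highest in Schwann cells, 1203 CPM in 377P and 1159.5 in RP. The NF-kB feedback genes differed as well. Nfkbia, the inhibitor that holds NF-kB in the cytoplasm, was highest in blood endothelial cells, 2866 CPM in 377P and 2873 in RP. Nfkbiz, a nuclear coactivator of NF-kB, was highest in neutrophils, 735 CPM in 377P and 715 in RP, and Tnfaip3, the A20 enzyme that ends TNF signalling, in T or NK cells, 482 CPM in 377P and 546 in RP. Among the IER genes, small induced proteins, Ier3 was highest in blood endothelial cells of 377P, 1106 CPM, and in chondrocytes of RP, 1521 CPM, with blood endothelial cells next at 1222. Chondrocytes of 377P were too few for a level. Ier2 and Ier5 were high in fibroblasts, Ier2 with 689 CPM in 377P and 683 in RP and Ier5 with 493 CPM in 377P and 462 in RP.

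The heat shock genes were mostly high in vascular cells and fibroblasts. Hspa1a and Hspa1b, the inducible HSP70 copies, were highest in lymphatic endothelial cells in 377P. Hspa1b had 3527 CPM in 377P and 2259.6 in RP there, and Hspa1a 2182 CPM in 377P and 1271 in RP. In RP, Hspa1a was 1369 in blood endothelial and 1356 in perivascular cells, which puts lymphatic cells below both. The copies are neighbours on chromosome 17 and share 58.8% and 62.3% of their 50-base words over the whole transcript, but none in the last 500 bases, the end that 3′ libraries read most. Hsph1, an HSP70 exchange factor, had 1176 CPM in 377P and 789 in RP in lymphatic endothelial cells. Hspa8, the HSP70 that every cell makes, was highest in perivascular cells, 3664 CPM in 377P and 2977 in RP. Hspb1, a small heat shock protein that keratinocytes make, was highest in epithelial cells of 377P, 2603 CPM, and in the chondrocytes of RP, 4224 CPM, where epithelial cells had 2870.5. Its level in the few chondrocytes of 377P is not given. Dnajb1, the HSP40 that works with inducible HSP70, had 1206 CPM in 377P and 1132 in RP in fibroblasts and 1029.7 CPM in 377P and 1126 in RP in epithelial cells. Hsp90aa1, the inducible HSP90, was the most even of the 7 over the compared classes, and outside the gland cells and the neutrophils it lay between 723 and 2052 CPM.

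**Figure D3:**
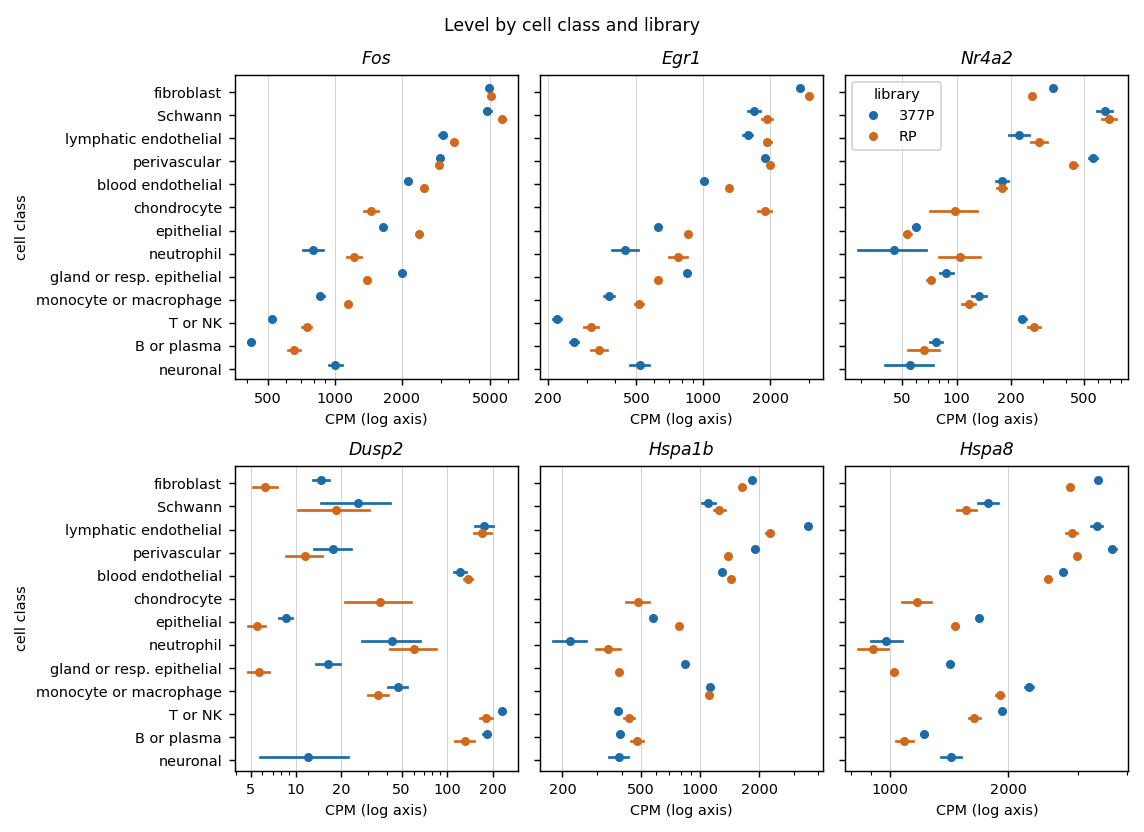
Level in CPM (log axis) of 6 of the genes by cell class (rows) and library (colour), with exact 95% Poisson intervals that cover counting error only. Fos and Egr1 are high in fibroblasts, Fos also in Schwann cells, Nr4a2 in Schwann cells, Dusp2 in T or NK cells, Hspa1b in lymphatic endothelial cells and Hspa8 in perivascular cells.

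Between the libraries, the 37 genes moved little in most classes. A fold of at least 1.5 is counted as a difference here, with no test behind it. The median log2 ratio of RP over 377P over the 37 genes was 0.19 in T or NK cells, 0.15 in epithelial cells, 0.04 in blood endothelial cells, 0.01 in B or plasma cells, -0.02 in monocytes or macrophages, -0.04 in fibroblasts, -0.10 in perivascular cells and -0.82 in gland cells. Over all genes tested in the same classes the medians were 0.06, 0.04, -0.04, 0.02, -0.05, -0.03, -0.03 and -0.29. Gland cells were the class where the genes stood farthest from 0. The summed immediate early share was higher in RP in 6 of 8 classes, and the summed heat shock share in 2 of 8.

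**Figure D4:**
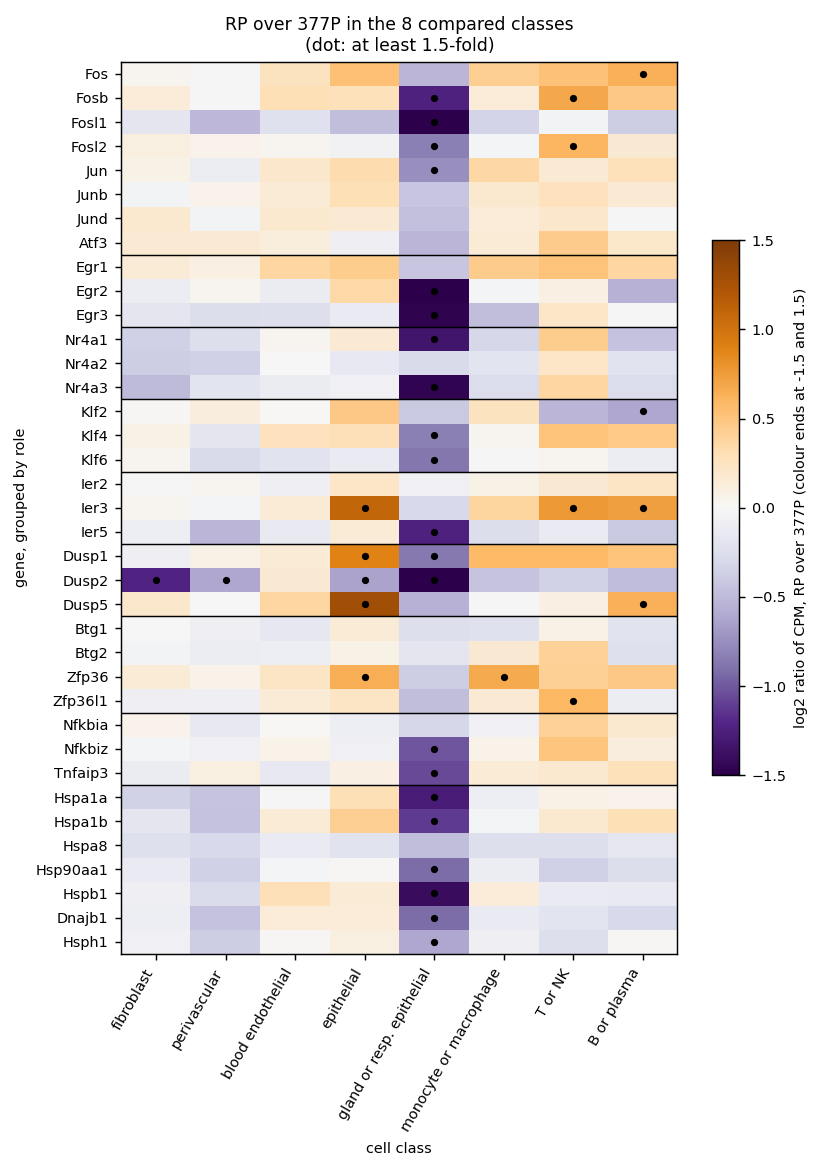
Log2 ratio of RP over 377P for each of the 37 genes (rows, grouped by role) in the 8 compared classes (columns), with a dot where the ratio is at least 1.5-fold in either direction. The gland column is below 0 for all 37 genes, T or NK cells are mostly above 0 for the immediate early genes, and Hspa8 and Fosl1 are below 0 in every column.

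In T or NK cells, 4 of the 37 genes were at least 1.5-fold higher in RP, against 16.7% of all genes tested, and 0 were at least 1.5-fold lower, against 7.14%. The 4 were Fosb, Ier3, Fosl2 and Zfp36l1, a smaller share of the 37 than of all genes. With each cell thinned to 1000 UMIs the count was 9, and with ratios centred on the median of all genes, or cluster 13 set against cluster 30, it was 2. The shares of all genes at these settings are not given, so these counts cannot be set against them. Fosb had 401 CPM in 377P and 643 in RP, 1.60-fold higher in RP (95% interval 1.51 to 1.70). Fosl2 had 204 CPM in 377P and 311 in RP, 1.52-fold higher in RP (95% interval 1.40 to 1.66). Ier3, which protects cells from death after NF-kB signals, had 65.6 CPM in 377P and 112 in RP, 1.70-fold higher in RP (95% interval 1.47 to 1.97). The Ier3 level was 5.93% and 7.35% of that of the highest class, within the range that free RNA reaches. Fosb stood at 12.6% and 18.5%, in 377P also within that range and in RP above it, whereas Fosl2 stood at 42.6% and 63.6% of its highest class. Zfp36l1 had 285 CPM in 377P and 427 in RP, 1.5-fold higher in RP (95% interval 1.40 to 1.61). The smaller differences lay mostly on one side. Of the 30 immediate early genes, 26 had a ratio above 0, and 25 after the ratios were centred on the median of all genes. All 3 NR4A genes and all 4 mRNA decay genes were above 0 on both scales. Klf2, which naive and resting T cells keep high, went the other way, with 622 CPM in 377P and 432 in RP, 1.44-fold lower in RP (1.35 to 1.54). Hsp90aa1 was 1.28-fold lower in RP (1.23 to 1.34), with 1506 CPM in 377P and 1173 in RP, and Dusp2 was 1.27-fold lower in RP (1.15 to 1.41), with 232 CPM in 377P and 182 in RP. Within cluster 11, with 458 and 281 cells, the immediate early share was 1.34% and 1.65%, and 2 genes were at least 1.5-fold higher in RP and 1 lower, against 13% and 12.9% of all genes of that cluster. These shares were above the 1.09% and 1.31% of the whole class. Cluster 11 held 458 of 1910 T or NK cells in 377P and 281 of 711 in RP, so the mix of the class differed. The part of this mix in the class values, Klf2 included, was not tested.

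In epithelial cells, 4 genes were at least 1.5-fold higher in RP, against 15.9% of all genes, and 1 was at least 1.5-fold lower, against 4.66%. Both are smaller shares of the 37 than of all genes. With doublets kept or with a marker gate per cell, the first count was 2. The 4 were Dusp5, Ier3, Dusp1 and Zfp36. Dusp5, a nuclear phosphatase that inactivates ERK, had 25.1 CPM in 377P and 61.7 in RP, 2.46-fold higher in RP (95% interval 2.30 to 2.63). Ier3 had 158 CPM in 377P and 336 in RP, 2.13-fold higher in RP (95% interval 2.08 to 2.19). Dusp1 had 326 CPM in 377P and 607 in RP, 1.86-fold higher in RP (95% interval 1.83 to 1.90), and Zfp36 386 CPM in 377P and 608 in RP, 1.57-fold higher in RP (95% interval 1.54 to 1.60). Dusp5, Dusp1 and Zfp36 encode feedback proteins that end the response. Fos itself, with 1646 CPM in 377P and 2384 in RP, was just short of the limit at 1.45-fold (1.43 to 1.46). Of the 37 genes, 11 had a ratio below 0. The 1 at least 1.5-fold lower was Dusp2, with 8.53 CPM in 377P and 5.49 in RP, 1.55-fold lower in RP (1.32 to 1.84). Fosl1 had 245 CPM in 377P and 177 in RP, 1.39-fold lower in RP (1.35 to 1.43). Hspa8 was 1.15-fold lower in RP (1.14 to 1.16), with 1679.8 CPM in 377P and 1462 in RP. The Dusp2 level, 3.68% and 3.02% of that in T or NK cells, lay within the range that Krt14 and Tff2 reach as free RNA. So did that of Dusp5 in 377P, at 11.4% of its T or NK level. Ier3 in 377P, at 158 CPM against 1106 in blood endothelial cells, lay near that range. Dusp2 and Dusp5 stood above the T cell gene Cd3e, which reached 1.55% and 0.438% of its T or NK level in these cells. The part of free RNA in these levels was not tested. Of the 7 heat shock genes, 6 had a ratio above 0, or 5 after centring.

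The makeup of the epithelial class moved with these values. Cluster 19, which drew 65 cells from 377P and 1036 from RP, had more of all 4 genes than the main cluster of the same library. Dusp5 was 119 CPM in its 377P cells and 133 in its RP cells, against 23.7 in cluster 8 of 377P and 27.6 in cluster 28 of RP. Ier3 was 401 and 576 in cluster 19, against 162 and 229.5. Between cluster 8 and cluster 28 the log2 ratios were 0.22 for Dusp5, 0.50 for Ier3, 0.61 for Dusp1 and 0.55 for Zfp36, in place of 1.30, 1.09, 0.90 and 0.65 over the whole class. The Dusp5 difference was much smaller between these clusters than over the class, and those of Dusp1 and Zfp36 changed less. The part of the mix of clusters in the class values was not tested further.

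**Figure D5:**
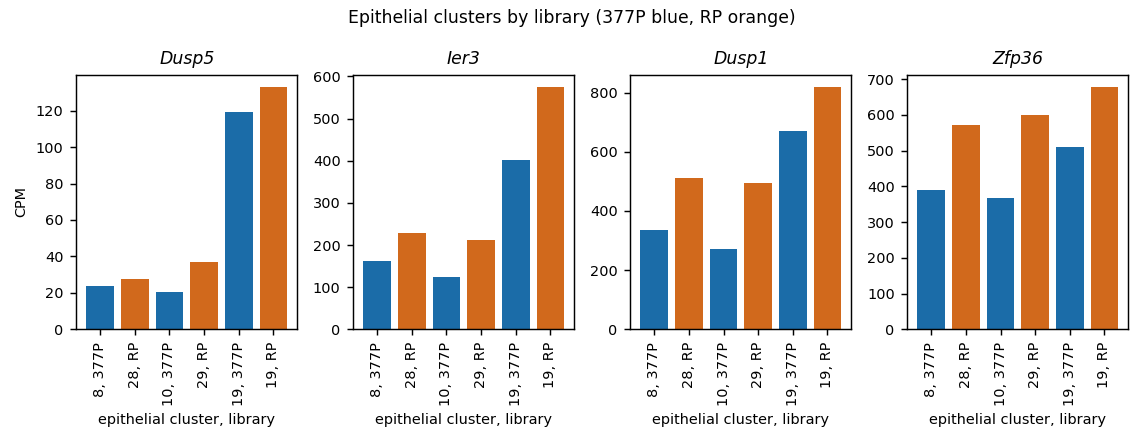
Level in CPM of Dusp5, Ier3, Dusp1 and Zfp36 in the epithelial clusters, by library (colour), as bars from 0 without error bars, since there is 1 library per title. Cluster 19 stands highest for Dusp5, Ier3 and Dusp1.

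Over all gland cells, the 37 genes each had a ratio below 0, and 34 of 37 remained below the median of all genes, which was itself shifted by -0.29. Of the 37 genes, 21 were at least 1.5-fold lower in RP, a larger share than the 32.6% of all genes, and 0 were higher, against 12.9%. Fosl1 had 163 CPM in 377P and 32.8 in RP, 4.97-fold lower in RP (4.55 to 5.43). Egr2 had 37.9 CPM in 377P and 12.5 in RP, 3.03-fold lower in RP (2.57 to 3.57), and Hspb1 1437 CPM in 377P and 547 in RP, 2.63-fold lower in RP (2.56 to 2.70). These are the genes whose interval lay farthest from 1, and relative to the median of all genes they stood at -2.03, -1.31 and -1.11 log2 units. The heat shock share was 0.706% in 377P and 0.367% in RP, and the immediate early share 1.85% in 377P and 1.23% in RP. Other measures moved with this result, and their part in it was not tested. The 16 gland markers summed to 124484 CPM in 377P and 217423 in RP, all 16 detected in both, and the 12 epithelial markers to 7721 and 2829.8. Median UMIs per cell were 9276 and 2227 over the class, but 11501.5 and 9273 in cluster 9, 8771 and 12228 in cluster 25 and 863 and 708 in cluster 3. The class values add up UMIs, so deeper cells weigh more in them. The 3 clusters of the class did not run the same way. Within cluster 9, which held 274 and 277 cells and had the highest immediate early share of the 3, 2.31% in 377P and 1.49% in RP, 24 genes were at least 1.5-fold lower in RP, against 29.4% of all its genes. Within cluster 25, with 155 and 1294 cells, it was 6, against 19.4%, and the shares were 1.45% and 1.24%. Within cluster 3, with 95 and 1326 cells and median depths of 863 and 708 UMIs, all 37 genes were higher in RP, 26 of them after centring on its median over all genes, 0.51. There 24 genes were at least 1.5-fold higher, against 45.3% of its genes, and the immediate early share was 0.527% and 0.899%. In that cluster Fos had 468 CPM in 377P and 1019 in RP, against 2530.4 and 1558 in cluster 9. The lower class values thus came with a smaller part of the class in cluster 9 in RP, and a change within cells and a change in the mix cannot be told apart for the class as a whole. Whether cluster 9 itself compares like cells was not tested. Its leading genes were Ccer2 and Amelx. At resolution 2.0 a cluster led by these genes came nearest to the epithelial list and stayed unnamed. To it 377P supplied 410 cells but RP only 63. The gland class then numbered 149 and 2471 cells. How cluster 9 split at that setting is not given, so its 24 lower genes cannot be read as a change within like cells. When called doublets were kept, the rebuilt gland class had 2 genes at least 1.5-fold lower in RP, and with a marker gate per cell in place of clusters it had 3. Neither rebuilt class held the same cells as before. With doublets kept, a cluster of 327 and 1105 cells with Reg3g and Ccer2 among its leading genes stayed unnamed. The gate gave 663 and 6178 gland cells, of which 187 and 2313 were also in the named gland clusters. The part of this in the changed counts was not tested. The shares of all genes at these settings are not given.

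In fibroblasts, the class with the highest immediate early share, 0 genes were at least 1.5-fold higher in RP, against 6.84% of all genes, and 1 was lower, against 7.12%. That gene was Dusp2, with 14.7 CPM in 377P and 6.27 in RP, 2.34-fold lower in RP (1.87 to 2.93). Dusp2 was highest in T or NK cells, and the 17 T or NK markers in fibroblasts moved with it, from 58.3 to 19.6 CPM in sum, with 17 detected in 377P and 16 in RP, where Klrb1c was at 0. Their part in the result was not tested. All 3 NR4A genes were lower in RP on both scales. Nr4a3 had 189 CPM in 377P and 134 in RP, 1.41-fold lower in RP (1.34 to 1.48), and Nr4a2 338 CPM in 377P and 259.8 in RP, 1.30-fold lower in RP (1.25 to 1.35). Small differences the other way were seen for Jund, Atf3 and Egr1. Jund had 1280.2 CPM in 377P and 1454 in RP, 1.14-fold (1.12 to 1.16) higher, Atf3 1851 CPM in 377P and 2059 in RP, 1.11-fold (1.10 to 1.13), and Egr1 was 1.11-fold (1.09 to 1.12) higher. Fos had 4938 CPM in 377P and 5034 in RP, 1.02-fold (1.01 to 1.03) higher. All 7 heat shock genes were lower in RP, with log2 ratios from -0.06 for Hsph1 to -0.34 for Hspa1a, and all 7 stayed below 0 after centring. Within cluster 15, with 236 and 375 cells, the immediate early share was 4.29% in 377P and 3.48% in RP, while over the whole class it was slightly higher in RP, and 5 genes were at least 1.5-fold lower, against 13.8%.

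Perivascular cells, the pericytes and smooth muscle of vessels, had lower levels of the heat shock genes in RP. Hspa1b had 1895 CPM in 377P and 1385 in RP, 1.37-fold lower in RP (1.32 to 1.42), Hspa1a 1843 CPM in 377P and 1356 in RP, 1.36-fold lower in RP (1.31 to 1.41), and Dnajb1 1074 CPM in 377P and 784 in RP, 1.37-fold lower in RP (1.31 to 1.44). All 7 were below 0 on both scales, with a median of -0.38 against -0.03 over all genes. Markers of other cells moved as well: the 12 fibroblast markers, all detected, summed to 4249.8 CPM in 377P and 2723 in RP, and the 16 gland markers, of which Bpifb1 and Cftr were at 0 in 377P, to 2687 and 16122. Their part in the heat shock values was not tested. Within cluster 12, with 419 and 906 cells, the heat shock share was 1.11% and 0.958%, and within cluster 21, with 185 and 374 cells, 1.65% and 1.18%. All 3 NR4A genes were below 0 as well. The genes at least 1.5-fold higher and lower in RP were 0 and 1, against 7.96% and 7.24% of all genes. The 1 was again Dusp2, with 17.6 CPM in 377P and 11.5 in RP, 1.54-fold lower in RP (1.03 to 2.28), beside a T or NK marker sum of 94.7 and 39.2 CPM whose part was not tested. After centring it was under the limit. On the other side, Atf3 had 2102 CPM in 377P and 2341 in RP, 1.11-fold (1.08 to 1.15), and Egr1 1888 CPM in 377P and 2006 in RP, 1.06-fold (1.03 to 1.10), while Klf2 was 1.08-fold (1.01 to 1.15) higher.

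Blood endothelial cells had 0 genes at least 1.5-fold apart in either direction, against 8.93% higher and 8.24% lower over all genes. Egr1 had 1011 CPM in 377P and 1305 in RP, 1.29-fold higher in RP (95% interval 1.24 to 1.34). Fosb had 1374 CPM in 377P and 1684 in RP, 1.23-fold (1.19 to 1.27), and Hspb1 1479 CPM in 377P and 1806 in RP, 1.22-fold (1.18 to 1.26). The differences towards 377P were smaller still. Klf6 was 1.15-fold lower in RP (1.09 to 1.22), Btg1 1.11-fold lower in RP (1.06 to 1.17) and Hspa8 1.09-fold lower in RP (1.06 to 1.12). In the smaller cluster 23, with 115 and 229 cells, 6 genes were at least 1.5-fold higher in RP, against 10.9% of its genes. Its immediate early share was 2.53% and 3.14%, and its heat shock share 1.2% and 1.47%. Cluster 1, with most of the class, had 0 such genes.

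In monocytes or macrophages, 1 gene was at least 1.5-fold higher in RP, against 11.4% of all genes, and 0 were lower, against 8.11%. It was Zfp36, which in macrophages limits the messages of TNF and other cytokines, with 429 CPM in 377P and 682 in RP, 1.59-fold higher in RP (95% interval 1.5 to 1.69). In cells thinned to 1000 UMIs, 0 genes were above the limit. Dusp1, which ends p38 and JNK signals, had 423 CPM in 377P and 634 in RP, just under the limit, with an interval of the fold from 1.41 to 1.59, and Fos had 858 CPM in 377P and 1149 in RP, 1.34-fold (1.28 to 1.40). Lower in RP were Hspa8, with 2253 CPM in 377P and 1900.2 in RP, 1.19-fold lower in RP (1.15 to 1.22), and by similar folds Btg1, 1.16-fold lower in RP (1.12 to 1.21), and Nr4a1, 1.24-fold lower in RP (1.12 to 1.38). The 3 NR4A genes were below 0 on both scales here too.

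In B or plasma cells, 3 genes were at least 1.5-fold higher in RP, against 13.8% of all genes, and 1 was lower, against 9.03%. The 3 were Fos, Ier3 and Dusp5. Fos had 417 CPM in 377P and 652 in RP, 1.56-fold higher in RP (95% interval 1.46 to 1.68), Ier3 65.5 CPM in 377P and 109 in RP, 1.67-fold higher in RP (95% interval 1.40 to 1.98), and Dusp5 53.4 CPM in 377P and 83.2 in RP, 1.56-fold higher in RP (95% interval 1.27 to 1.90). Fos and Ier3 lay at levels that free RNA also reaches, and in thinned cells 1 gene was above the limit. Fosb, with 325 CPM in 377P and 453 in RP, was 1.39-fold (1.28 to 1.51) higher. The gene lower in RP was Klf2, with 867 CPM in 377P and 565 in RP, 1.54-fold lower in RP (1.43 to 1.65), followed by Dusp2, 1.40-fold lower in RP (1.21 to 1.62), and Nr4a1, 1.36-fold lower in RP (1.24 to 1.5). Klf2 is known to be high in resting B cells and low in plasma cells, and the makeup of this class differed between the libraries, so a change within a cell and a change in the mix cannot be told apart. Cluster 5, with 114 and 561 cells, did not hold like cells in the libraries: at resolution 2.0, 106 of its 377P and 21 of its RP cells fell into a cluster led by the plasma cell genes Ighg2b and Jchain, and 8 and 540 into one led by the B cell genes Bank1 and Cd79a, and its median depths were 10219.5 and 1960.0 UMIs. Its immediate early share, 0.586% in 377P and 0.977% in RP, and the 21 genes at least 1.5-fold higher in RP, against 20.5% of its genes, therefore set mostly cells of the first kind in 377P against mostly cells of the second kind in RP.

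Across the classes, few genes kept a direction. Hspa8 and Fosl1 were below 0 in 8 of 8 classes, and in 8 of 8 after centring. Fosl1, whose ratio in T or NK cells was only -0.04, was below 0 in 10 of the 13 clusters with at least 100 cells of each library and reached 0.47 in fibroblast cluster 15. Hspa8 was below 0 in all 13, between -0.09 and -0.43; in the smaller gland cluster 3 it was higher in RP, 627 against 756 CPM. The difference is small, less than 1.5-fold in every class. Egr1 and Zfp36 were above 0 in 7 of 8 classes on both scales, with the gland cells as the exception. Fos and Ier3 were above 0 in 6 of 8 classes, and in 7 of 8 after centring. Over the 13 clusters the direction was less even. Egr1, Zfp36 and Fos were each above 0 in 8 and below 0 in 5, and Ier3 in 9 and 4. The NR4A genes were all below 0 in fibroblasts, perivascular cells, monocytes or macrophages, B or plasma cells and gland cells, and all above 0 in T or NK cells, on both scales. Across the 13 clusters, the immediate early sum was higher in RP in 8, cluster 5 among them, and the heat shock sum lower in RP in 9. Neutrophils, which were too few for the comparison of classes, filled 1 of these clusters with 116 and 175 cells, and there 12 genes were at least 1.5-fold higher in RP, against 16.5%.

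Related genes of the same pathways were listed alongside. Of 20 other heat shock and chaperone genes, 18 were below 0 in fibroblasts, 19 in perivascular cells, 17 in blood endothelial cells, 17 in monocytes or macrophages, 17 in T or NK cells, 15 in epithelial cells, 13 in B or plasma cells and 20 in gland cells. After centring these counts were 17, 18, 14, 17, 17, 16, 14 and 18. Their differences were small, and in fibroblasts, perivascular, blood endothelial, T or NK and epithelial cells 0 of the 20 were at least 1.5-fold apart. Of 35 further immediate early genes tested, 5 were at least 1.5-fold higher and 1 lower in T or NK cells, and 1 and 0 in epithelial cells, near or below the shares of all genes given above (16.7% and 7.14%, and 15.9% and 4.66%). In gland cells 1 was higher and 20 lower, a larger share than the 32.6% of all genes. In epithelial cells that gene was Dusp4, another ERK phosphatase, with 5.09 CPM in 377P and 9.83 in RP, 1.93-fold higher in RP (95% interval 1.65 to 2.26). Of 15 serum response and MAP kinase regulators, 1 was higher in epithelial cells, 3 in T or NK cells, 4 in B or plasma cells and 0 in fibroblasts, beside 15.9%, 16.7%, 13.8% and 6.84% of all genes. In gland cells 8 were lower, beside 32.6% of all genes. Of 19 NF-kB subunits and targets, 4 were higher and 0 lower in epithelial cells, beside 15.9% and 4.66% of all genes. In fibroblasts 2 and 1 were, beside 6.84% and 7.12%, and in gland cells 1 and 11, beside 12.9% and 32.6%. The leading pair in epithelial cells were cytokine genes. Tnf had 5.76 CPM in 377P and 24.9 in RP, 4.32-fold higher in RP (95% interval 3.80 to 4.93), and the neutrophil attractant Cxcl2 102 CPM in 377P and 397 in RP, 3.89-fold higher in RP (95% interval 3.77 to 4.01). In monocytes or macrophages Tnf had 134 CPM in 377P and 222 in RP, and the part of free RNA in the epithelial levels was not tested. There Cxcl1, a related attractant, had 218 CPM in 377P and 531 in RP, 2.43-fold higher in RP (95% interval 2.25 to 2.64). Of 14 genes of metallothionein, oxidative and amino acid stress in epithelial cells, 1 was higher and 1 lower, beside 15.9% and 4.66% of all genes. The most were higher in B or plasma cells, 5 with 0 lower, beside 13.8% and 9.03%. T or NK cells had 4 and 1, beside 16.7% and 7.14%. In epithelial cells the lower gene of the stress list was Mt1, a zinc-binding metallothionein, with 5534 CPM in 377P and 3657 in RP, 1.51-fold lower in RP (1.5 to 1.52).

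Counted in single cells, the typical cell of each class held UMIs of several of the genes. With each cell thinned to 1000 UMIs, the median number of the 30 immediate early genes with a UMI was 13 in fibroblasts of both libraries, 7 in B or plasma cells of both, 7 and 9 in T or NK cells, 9 and 10 in epithelial cells, and 10 and 7 in gland cells of 377P and RP. A Fos UMI was seen in 77.4% and 81.7% of thinned fibroblasts, and in 34.5% and 45.0% of thinned B or plasma cells. Without thinning the shares were 96.9% and 96.2%, and 62.4% and 71.0%. As a gauge of free RNA, in the same thinned B or plasma cells, whose median depths were 2416 and 1960.0 UMIs, Krt14 had a UMI in 65.3% and 49.5%, and Col3a1, a collagen of fibroblasts, in 16.3% and 19.96%. The share of B or plasma cells with Fos lay between these and is not read as expression.

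The genes moved with the quality of the cells. Within 377P, the immediate early share was higher in cells below the class's median mitochondrial share than in those above it in 8 of 8 classes, and within RP in 7 of 8. The heat shock share was higher below the median in 7 of 8 classes of each library. In fibroblasts the immediate early share was 3.44% below and 2.87% above the median in 377P, and 3.49% and 3.02% in RP. In fibroblasts, perivascular and blood endothelial cells the gap between these groups of cells was larger than that between the libraries. In epithelial, gland and T or NK cells it was smaller. Gland cells had 1.92% below and 1.77% above the median in 377P and 1.29% and 1.16% in RP, beside 1.85% and 1.23% for the libraries. In monocytes or macrophages and B or plasma cells it was larger in 377P and smaller in RP. The barcodes left out for more than 20% mitochondrial UMIs, 115 in 377P and 819 in RP, had 1.31% and 1.42% of their other UMIs from the immediate early genes, against 1.91% and 2.08% in kept cells. Lower values thus went with a higher mitochondrial share, and RP, with the higher mitochondrial share, had lower immediate early sums in 2 of 8 classes, gland and perivascular cells, and lower heat shock sums in 6 of 8. The part of cell quality in the differences between libraries was not tested.

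Likeness was measured as Pearson's r of log2(CPM + 1) over the 24 class-by-library groups with at least 50 cells, which share libraries and free RNA and are not independent. Fos was most like Fosb (0.964), Jun (0.935) and Egr1 (0.934). It was unlike Nr4a3 (0.00952) and ran against Btg1 (-0.561) and Dusp2 (-0.438). Of 7920 other genes, Cachd1 (0.929), Klf9 (0.926), Parva (0.926), Amotl2 (0.920) and Ccn1 (0.918) had the closest pattern. Hspa1a was most like its copy Hspa1b (0.964), followed by Hspa8 (0.830), and less like Hspb1 (0.359). Outside the 37 genes the closest to Hspa1a were Cyth3 (0.906), Tspan4 (0.891), Rab12 (0.889), Gprc5b (0.887) and Lmna (0.879). Between Fos and Hspa1a, r was 0.767.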

How the data were processed

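The authors deposited, for each library, a matrix of UMI counts that had not been normalised. Cell Ranger 7.0.1 wrote it, per the file headers. The submitters' processing notes name Cell Ranger, STAR and mm10. The annotation release and the treatment of intronic reads were not given in the sources used here. Barcodes needed at least 200 genes and a mitochondrial share of at most 20%, and doublets called with Scrublet (expected share 12%, Scanpy 1.11.5) were removed: 832 in 377P (5.42%) and 514 in RP (2.97%). Both libraries were clustered together on 3000 variable genes without the 37 described genes (40 principal components, 20 neighbours, Leiden resolution 1.0, igraph 0.11.9). A cluster was named when at least 4 markers of a class were at least 2-fold enriched and seen in at least 10% of its cells, and stayed unnamed when another class had more markers among its 10 leading genes. For each class and library, UMIs were added up over cells and given as counts per 1000000 (CPM) with exact 95% Poisson intervals, and folds with the exact interval for 2 Poisson counts, all for counting error only. Classes with at least 200 cells in each library were compared, over genes with at least 20 UMIs, and levels are given for groups of at least 50 cells. A count of 0 was set to 3. In each class the 3 genes in each direction whose interval bound lay farthest from 1 are given in full, and genes named beyond them were chosen after their values were seen. The steps were tested on simulated counts. The genes and lists were chosen with earlier results of these data known.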

Additional observations from a re-analysis of the deposited data

How the results depend on the processing

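With 1 library per title, no replicate could be left out, and intervals cover counting error only. No paired analysis was possible because each title has 1 library and the labels give no replicate numbers. Of the 37 log2 ratios of a gene in a class that were past 1.5-fold, 28 kept their sign under each of the 11 alternatives that gave a value and 9, all in gland cells, changed it under at least 1, while 5 stayed past 1.5-fold under each. The causes of the changes below were not tested. For counts under the alternatives, here and above, the shares of all genes at the same settings are not given. Whether such a count is above or below that of all genes cannot be read from it. The matched clusters were chosen after seeing the data. A limit of 10% mitochondrial UMIs gave 2 genes higher in RP in monocytes or macrophages in place of 1. With doublets kept, the counts were 2 higher in epithelial cells (4 before), 2 lower in gland cells (21), 2 higher in monocytes or macrophages (1) and 0 lower in B or plasma cells (1). In that rebuilt gland class the log2 ratios of Fosb (0.045), Fosl2 (0.042), Jun (0.13), Egr3 (0.26), Klf4 (0.13), Nfkbiz (0.059) and Hsph1 (0.024) changed sign. With a marker gate per cell, the counts were 2 higher and 2 lower in epithelial cells, 3 lower in gland cells, and 1 higher and 1 lower in blood endothelial cells, and in gland cells Fosl2 (0.087), Jun (0.073), Klf4 (0.22), Nfkbiz (0.17) and Hspa1b (0.068) changed sign. Both of these rebuilt gland classes held a changed set of cells, as given above. Ratios centred on the median of all genes gave 0 lower in perivascular cells, 2 higher in monocytes or macrophages and 2 higher in T or NK cells. In cells thinned to 1000 UMIs, the counts were 0 lower in epithelial cells, 2 lower in perivascular cells, 0 higher and 1 lower in monocytes or macrophages, 1 higher and 3 lower in B or plasma cells, and 9 higher and 1 lower in T or NK cells. With the 37 genes allowed in the clustering, 0 were lower in epithelial cells. With 1 matched cluster per class and library, 1 was higher in epithelial cells, 6 lower in gland cells, 3 lower in B or plasma cells and 2 higher in T or NK cells. With each cell weighted alike, 1 was lower in blood endothelial cells and 2 in B or plasma cells, Dusp2 changed sign in gland cells (0.26), and the summed share was higher in RP in 2 of 8 classes in place of 4. The number of genes with a UMI in a larger share of RP cells depended on depth: with thinned cells it was 19 in epithelial cells, 1 in gland cells, 16 in fibroblasts, 14 in perivascular cells, 20 in blood endothelial cells, 19 in monocytes or macrophages and 26 in T or NK cells, and without thinning 3, 0, 0, 0, 0, 4 and 8, and 0 in gland cells thinned to 2000 UMIs. The gate left too few cells for 4 classes, resolution 2.0 for gland cells and monocytes or macrophages, and no matched cluster was set for monocytes or macrophages.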
